A study of Mus musculus with 2 samples.

Results

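Open chromatin was mapped by DNaseI-seq around 10 genes that hold epithelial cells together or shape their transcripts: Cdh1, Cldn3, Cldn4, Cldn7, Ocln, Tjp1, Epcam, Esrp1, Esrp2 and Crb3. The cells were NMuMG, an epithelial line from mouse mammary gland. They were starved of serum and insulin for 6 h, then exposed for 2 h to vehicle or to TGFβ1 at 5 ng/ml, so the groups shared the starvation and differed in the TGFβ1. Each condition was represented by 1 list of peaks on mouse assembly mm9, called here the vehicle list and the TGFβ 2 h list. An interval was assigned to a gene when it overlapped the gene body in the GENCODE M1 annotation or lay within 50 kb of it. By this rule 40 of 17784 vehicle intervals and 50 of 22600 TGFβ 2 h intervals belonged to the 10 genes. All 10 were found in the annotation, and each had at least 1 interval. An interval that overlapped an interval of the other list by at least 1 bp was called shared, and otherwise vehicle-only or TGFβ 2 h-only. An interval that came within 1000 bp of an annotated transcript start of any gene was called promoter, and otherwise distal.

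E-cadherin, encoded by Cdh1, joins neighbouring epithelial cells at adherens junctions. Claudins and occludin seal tight junctions, and the scaffold protein ZO-1, encoded by Tjp1, ties them to actin. When TGFβ drives epithelial-mesenchymal transition, these contacts are dismantled, and repressors of the Snail and Zeb families are known to bind E2-box letters at several of the genes. Chromatin cut readily by DNaseI is open to such factors, and peaks mark where those cuts pile up.

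With 1 list a condition, there was no spread between replicates to set a difference against, and no test between conditions was made. A difference between the lists is a difference between these lists and not yet between the treatments. An interval called in only 1 list was called there; the other list holds no signal values, so whether signal was present below its threshold cannot be read. The lists hold no read depth, and by the study's reporting summary the vehicle library had more reads. The vehicle list has fewer distinct intervals, 17784 against 22600, but more rows as deposited, 70449 against 68542. Wilson 95% intervals below cover counting error only. As a check on the cell label, 5 of 8 epithelial marker genes had a vehicle interval at their own start, namely Krt8, Krt18, Cdh1, Grhl2 and Elf3. The same genes but Grhl2 had a TGFβ 2 h interval there. The other epithelial markers, Krt7, Epcam and Cldn7, had none at their start in either list. Of 5 fibroblast markers, Col1a1 and Twist2 had an interval at their start in both lists. None of 4 endothelial, 4 immune and 4 muscle or neuron markers had such an interval in either list. For scale, 43.8% of protein-coding genes had an interval at their own start in both lists. The epithelial and fibroblast counts are not far from that share, so the check is a weak one.

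The following stretches carry the findings. The first 3 are promoter sequences, 250 bases upstream of the annotated start, read from the mm9 genome on the gene's strand. Cdh1 is shown because its start was open in both lists. Cldn4 and Epcam are shown because their starts held E2-box matches, and at Cldn4 AP-1 matches, but no interval of either list. Capitals mark matches on either strand to the AP-1 letters TGACTCA, the E2-box letters CACCTG, the Grainyhead letters AACCNGTT and the ETS letters CCGGAA.
Cdh1 promoter, chr8:109127001-109127250, plus strand: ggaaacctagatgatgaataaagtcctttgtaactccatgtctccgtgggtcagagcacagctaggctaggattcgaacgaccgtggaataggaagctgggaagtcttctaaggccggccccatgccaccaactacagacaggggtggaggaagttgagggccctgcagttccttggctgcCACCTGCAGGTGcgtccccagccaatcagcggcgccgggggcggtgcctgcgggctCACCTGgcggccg
Cldn4 promoter, chr5:135422805-135423054, minus strand: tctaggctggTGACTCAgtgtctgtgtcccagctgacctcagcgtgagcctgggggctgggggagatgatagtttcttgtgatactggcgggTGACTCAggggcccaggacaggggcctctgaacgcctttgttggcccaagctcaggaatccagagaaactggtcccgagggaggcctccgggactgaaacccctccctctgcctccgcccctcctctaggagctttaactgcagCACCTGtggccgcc
Epcam promoter, chr17:88035069-88035318, plus strand: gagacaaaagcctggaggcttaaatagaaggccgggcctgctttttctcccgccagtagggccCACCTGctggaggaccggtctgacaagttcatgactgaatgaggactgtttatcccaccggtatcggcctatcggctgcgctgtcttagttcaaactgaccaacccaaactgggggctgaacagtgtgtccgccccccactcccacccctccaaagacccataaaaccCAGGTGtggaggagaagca

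The next 4 are the central 200 bases of distal intervals of the TGFβ 2 h list, with the same capitals, each printed on the strand given. The first 3 are TGFβ 2 h-only intervals near Epcam, Cldn4 and Cdh1. The last is the shared interval upstream of Cldn4 whose score differed most between the lists.
Epcam upstream, chr17:88009137-88009336, plus strand: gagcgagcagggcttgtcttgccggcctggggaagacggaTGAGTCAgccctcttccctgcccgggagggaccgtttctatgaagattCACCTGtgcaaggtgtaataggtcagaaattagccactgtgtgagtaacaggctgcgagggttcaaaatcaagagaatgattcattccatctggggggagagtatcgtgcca
Cldn4 upstream, chr5:135427327-135427526, plus strand: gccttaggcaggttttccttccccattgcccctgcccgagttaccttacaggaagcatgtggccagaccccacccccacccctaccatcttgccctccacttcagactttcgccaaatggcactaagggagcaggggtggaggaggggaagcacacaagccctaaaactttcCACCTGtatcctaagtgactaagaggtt
Cdh1 upstream, chr8:109094549-109094748, plus strand: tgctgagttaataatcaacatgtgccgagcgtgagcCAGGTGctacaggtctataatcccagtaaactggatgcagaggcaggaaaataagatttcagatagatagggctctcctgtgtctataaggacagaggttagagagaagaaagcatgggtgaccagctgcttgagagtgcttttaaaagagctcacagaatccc
Cldn4 shared, chr5:135435025-135435224, plus strand: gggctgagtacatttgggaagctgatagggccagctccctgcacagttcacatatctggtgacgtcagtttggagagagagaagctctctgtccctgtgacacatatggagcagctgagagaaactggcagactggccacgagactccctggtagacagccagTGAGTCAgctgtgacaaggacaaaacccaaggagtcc

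Around the 10 genes, 38 of the 40 vehicle intervals were shared and 2 were vehicle-only, a share of 5.00% (1.38 to 16.5). Over the whole vehicle list 17.6% were vehicle-only. Of the 50 TGFβ 2 h intervals, 38 were shared and 12 were TGFβ 2 h-only, a share of 24.0% (14.3 to 37.4), beside 33.7% over the whole TGFβ 2 h list. Unshared intervals of the TGFβ 2 h list thus outnumbered those of the vehicle list, and both shares lay below those of their full lists. With the TGFβ 2 h list shortened by its scores to the length of the vehicle list, the counts were 7 TGFβ 2 h-only and 4 vehicle-only. Full-list shares at that length are not given here. Most intervals in these windows were promoters, 26 of 40 for vehicle and 28 of 50 for TGFβ 2 h. These shares were 65.0% (49.5 to 77.9) and 56.0% (42.3 to 68.8), beside 57.6% and 47.9% over the full lists. Both Wilson intervals hold the full-list share. Among distal TGFβ 2 h intervals, 9 of 22 were TGFβ 2 h-only, 40.9% (23.3 to 61.3), beside 55.3% of all distal intervals. The interval of that share holds the background. Among distal vehicle intervals 1 of 14 was vehicle-only, 7.14% (1.27 to 31.5), beside 31.6% of all distal vehicle intervals.

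**Figure D1:**
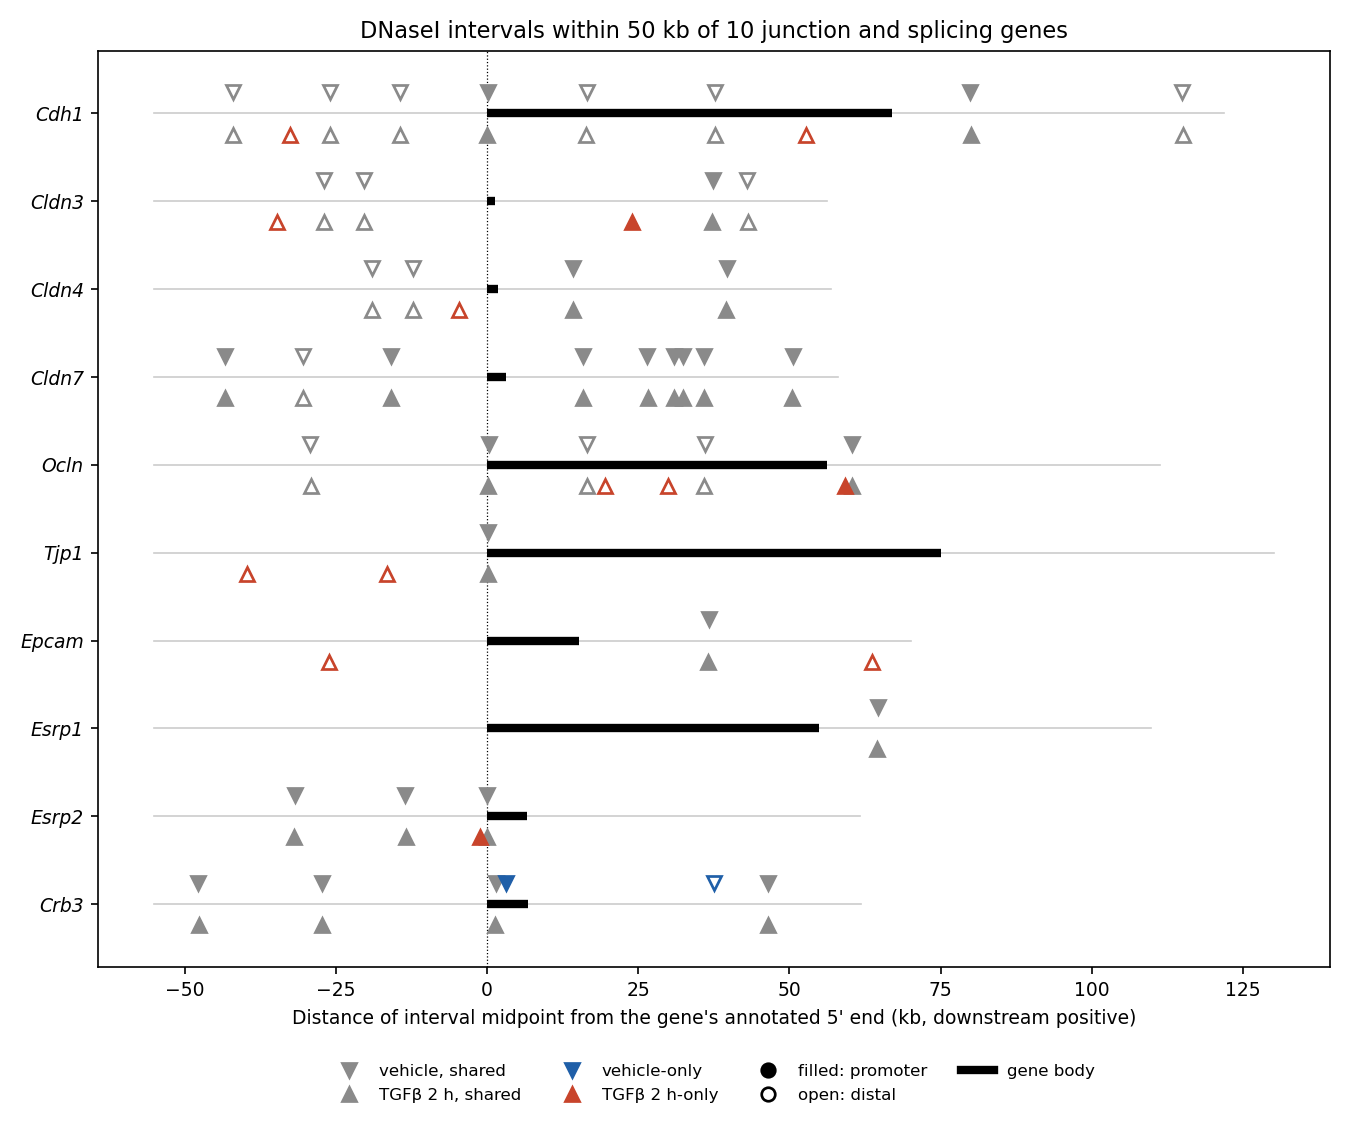
Position of each interval near the 10 genes, as kb of the interval midpoint from the gene's annotated start (horizontal axis, downstream positive), with 1 row a gene. Downward triangles above the line are vehicle and upward triangles below it TGFβ 2 h, gray where shared, blue where vehicle-only and red where TGFβ 2 h-only. Filled symbols are promoters of any gene and open symbols are distal, symbols do not show width, and the black bar is the gene body. The 12 red symbols, counting the Cldn3 and Cldn4 site once, fall at 7 genes, and both blue symbols fall at Crb3.

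Many of the promoter intervals belonged to neighbouring genes. Only 5 of the 26 vehicle and 4 of the 28 TGFβ 2 h promoter intervals touched a start of the 10 genes themselves. The others lay at starts of neighbours within the windows. For 12 vehicle and 18 TGFβ 2 h intervals, the nearest coding start was that of a member.

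By gene, the start itself was open in both lists at Cdh1, Ocln, Tjp1 and Esrp2. These 4 of 10 genes compare with 43.8% of 22367 protein-coding genes, and with 56.6% of those that had an interval in their window. At Cldn3, Cldn4, Cldn7, Epcam and Esrp1, 5 of 10, no interval of either list came within 1000 bp of an annotated start, beside 51.9% of protein-coding genes. Among the 17299 coding genes with an interval in their window, that share was 37.8%. Crb3 had an interval at its starts in the vehicle list only. Of intervals at or above their list's median score, 2 members had one at their start in both lists.

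A majority of the genes, 7 of 10, had more TGFβ 2 h than vehicle intervals, against 33.7% of protein-coding genes and 43.5% of those with an interval in the window. They were Cdh1, Cldn3, Cldn4, Ocln, Tjp1, Epcam and Esrp2. The Wilson interval of 7 in 10 ran from 39.7% to 89.2% and held the second of these backgrounds but not the first. With gene bodies alone, without the flanks, the count was 2 of 10, and with intervals at or above the median score 3 of 10. With lists of equal length it was 5 of 10. Shares over all protein-coding genes at these settings are not given here, so these counts have no like background. The same 7 genes had at least 1 TGFβ 2 h-only interval, against 40.5% of protein-coding genes and 52.4% of those with an interval in the window. Only Crb3 had fewer, 1 of 10 against 13.2% and 17.1%. Only Crb3 had a vehicle-only interval, against 25.9% and 33.5%. These backgrounds lie within the Wilson intervals of the counts, 39.7% to 89.2% for 7 of 10 and 1.79% to 40.4% for 1 of 10. The members had more intervals than the usual gene to begin with, a mean of 4.2 vehicle and 5.3 TGFβ 2 h intervals against 2.34 and 2.72. Cldn3 and Cldn4 lie side by side on chromosome 5 and shared 2 vehicle and 3 TGFβ 2 h intervals, so they are not separate observations.

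**Figure D2:**
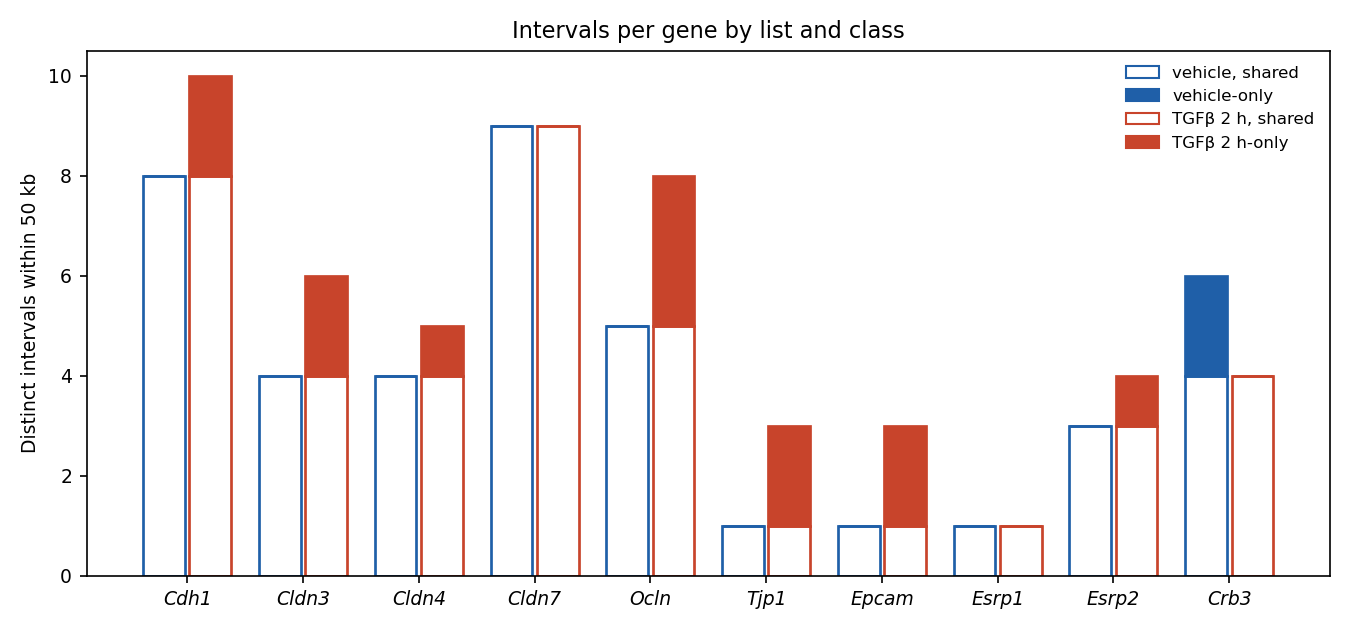
Number of distinct intervals within 50 kb of each gene (vertical axis), blue for vehicle and red for TGFβ 2 h. Open parts of the bars are shared and filled parts were called in that list only. Ocln had the most TGFβ 2 h-only intervals, 3 of 8, and Crb3 is the gene with a filled blue part.

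Cdh1 (chr8:109127251-109194146, plus strand), the E-cadherin gene, had 8 vehicle and 10 TGFβ 2 h intervals. Only 3.21% of protein-coding genes had as many vehicle intervals and 1.68% as many TGFβ 2 h intervals. These ranks take no account of gene length, and the 66.9 kb body of Cdh1 widens its window. Some of the intervals lay nearest to the coding starts of Tmco7 or Gm10073. The interval over the Cdh1 start was 625 bp wide with a score of 829 in the vehicle list. In the TGFβ 2 h list it was 589 bp wide with a score of 910. The score is the authors' whole-number peak score, from 540 to a ceiling of 1000. Its minimum of 540 equals the scaled score for an irreproducible discovery rate of 0.05. It may thus rank how reproducible a peak was and is not read here as peak height. Scores can be compared only loosely between lists. Every vehicle interval of Cdh1 was shared. Within its body, intronic intervals 16.5 kb and 37.6 kb from the start were called in both lists. They scored 1000 and 899 in the vehicle list and 1000 and 957 in the TGFβ 2 h list. The intronic interval at 16.5 kb holds an AP-1 match in its central 200 bases.

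A pair of TGFβ 2 h-only intervals flanked or lay in Cdh1. The upstream site, chr8:109094303-109094994, lay 32.6 kb before the start in intergenic sequence with a score of 566, and its centre holds an E2-box match. The other, chr8:109179730-109180086, lay in an intron 52.7 kb after the start, with a score of 730. No vehicle-only interval was called in the Cdh1 window.

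Cldn3, Cldn4 and Cldn7, claudins of the paracellular seal, had no interval at their starts. Of 8 other claudins, 5 likewise had none, while Cldn12 and Cldn23 had such an interval in both lists and Cldn1 in the vehicle list. At Cldn3 the nearest interval lay 20.0 kb from an annotated start in either list. At Cldn4 it lay 11.99 kb away in the vehicle list and 4.18 kb away in the TGFβ 2 h list. Cldn7 had its nearest intervals at 13.1 kb and 13.27 kb.

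Between Cldn4 and Cldn3 lay a TGFβ 2 h-only interval, chr5:135426986-135427867, with its midpoint 4.62 kb upstream of the Cldn4 start. It was 882 bp wide, spread over 6 rows of the list, and had a score of 846, the highest among the 12 TGFβ 2 h-only intervals. The nearest vehicle interval was 6930 bp away. That neighbour, 12.3 kb upstream of Cldn4, was shared. It was 556 bp wide in the vehicle list and 741 bp in the TGFβ 2 h list. Its scores were 572 and the ceiling of 1000, which is the largest score difference of the 38 shared pairs. A further shared interval 19.0 kb upstream of Cldn4 scored 586 in the vehicle list and 639 in the TGFβ 2 h list. That last interval stood later in the TGFβ 2 h list, 94.2% of the way down against 77.1% for vehicle, and was narrower there, 546 bp against 590 bp, so score and place in the list differ in order. Downstream of Cldn3, a shared interval at 43.0 kb in an intron of Stx1a scored 742 and 916. The other Cldn3 interval called TGFβ 2 h-only, chr5:135485947-135486051, was only 105 bp wide and lay at the promoter of Abhd11.

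Cldn7 had 9 intervals in each list, all shared. Of these, 8 lay at promoters of its neighbours Eif5a, Slc2a4, Ctdnep1, Rai12, Gabarap, Phf23, Dvl2 and Acadvl. The distal interval, 30.4 kb upstream, scored 1000 in the vehicle list and 740 in the TGFβ 2 h list. An interval at Phf23 had the opposite order, 706 and 1000.

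Ocln (chr13:101266462-101322673, minus strand), which encodes occludin, had 5 vehicle and 8 TGFβ 2 h intervals. Its start interval scored 1000 in both lists and was 1115 bp wide in the vehicle list and 950 bp in the TGFβ 2 h list. Its 3 TGFβ 2 h-only intervals had low scores. Those within introns, chr13:101292547-101293087 and chr13:101302908-101303299, scored 546 and 614. The third, at the Gtf2h2 promoter and 504 bp from a vehicle interval, scored 546. The lowest score in the list was 540, so those at 546 sat close to the threshold.

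Shared distal intervals of Ocln differed in both directions. An intronic site 36.0 kb from the start scored 707 in the vehicle list and 1000 in the TGFβ 2 h list, while its widths were 823 bp and 585 bp. An intronic site 16.6 kb from the start scored 1000 and 696. An intergenic site 29.3 kb upstream scored 675 and 548 and measured 808 bp and 252 bp, the narrowest of the shared pairs relative to vehicle.

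Tjp1 (chr7:72441051-72516125, minus strand) had 1 vehicle interval, over its start, at a score of 1000 in both lists. It was wider in the TGFβ 2 h list, 1281 bp against 1201 bp. Both other TGFβ 2 h intervals were intergenic, upstream and TGFβ 2 h-only. The nearer, chr7:72532144-72533075, lay 16.5 kb upstream with a score of 640. The farther, chr7:72555560-72556015, lay 39.7 kb upstream with a score of 812. The nearest vehicle intervals were 15585 bp and 39001 bp from them.

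Epcam (chr17:88035319-88050446, plus strand) encodes an epithelial cell adhesion molecule. It had 1 vehicle interval in its window, which was shared, and 3 TGFβ 2 h intervals. No interval of either list used here touched the Epcam body. The TGFβ 2 h list held an intergenic interval 26.1 kb upstream, chr17:88009029-88009444, with a score of 725. The nearest vehicle interval was 37757 bp away. The central 200 bases of this site hold 1 match each to the AP-1 and the E2-box letters. The other TGFβ 2 h-only interval of the window was counted and is not described here.

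The epithelial splicing regulators Esrp1 and Esrp2, RNA-binding proteins that keep epithelial exon choices, differed from each other. Esrp1 (chr4:11259080-11313930, minus strand) had no interval in its body and 1 shared interval in its window, at the promoter of Dpy19l4. That interval scored 1000 in both lists. Esrp2 (chr8:108654219-108660874, minus strand) had an interval over its start in both lists, 957 bp wide with a score of 825 for vehicle and 962 bp wide at the ceiling of 1000 for TGFβ 2 h. A TGFβ 2 h-only interval, chr8:108661894-108662303, lay 1.22 kb upstream with a score of 787, at the start of the noncoding gene 1810019D21Rik and 510 bp from the vehicle interval. The other intervals of Esrp2 were shared and lay at the promoters of Pla2g15 and Slc7a6.

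Crb3 (chr17:57198528-57205341, plus strand), a Crumbs polarity protein of the apical membrane, held both vehicle-only intervals and no TGFβ 2 h-only interval. It had 6 vehicle and 4 TGFβ 2 h intervals. The vehicle-only interval at its start, chr17:57201409-57201978, was 570 bp wide with a score of 794 and covered 5 of its 6 annotated starts. The nearest TGFβ 2 h interval ended 1224 bp away. That neighbour, chr17:57199613-57200184, was shared, scored 1000 in both lists and lay at a start of Slc25a23. It was 1085 bp from the first annotated start of Crb3, just outside the promoter distance. The other vehicle-only interval, chr17:57235888-57236262, scored 769 and lay in an intron 37.5 kb downstream, nearest to the start of Tnfsf9.

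The 12 TGFβ 2 h-only intervals had a median score of 727.5, between 546 and 846, and none was at the ceiling. All 7611 TGFβ 2 h-only intervals had a median of 669. Their median width of 436.0 bp compared with 436 bp for all TGFβ 2 h-only intervals. Shared intervals of the same windows had a median TGFβ 2 h score of 1000 and a median width of 656.5 bp. Of the 12, 2 lay within 1000 bp of a vehicle interval.

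The 38 shared pairs were mostly narrower in the TGFβ 2 h list, 28 of 38 or 73.7% (58.0 to 85.0), with a median width ratio of 0.89. Over all 13978 pairs with 1 partner on each side, 70.9% were narrower and the median ratio was 0.906, so the difference in width was close to that over the whole lists. Both scores were at the ceiling in 21 pairs. The score was higher in the TGFβ 2 h list in 8 pairs and lower in 9. Among the 13 distal pairs it was higher in 5 and lower in 5, beside 45.2% higher and 31.3% lower over all distal pairs. Since many scores were at the ceiling, the place in the list was read as well, where early intervals carried the high scores. The TGFβ 2 h interval stood earlier in its list, as a share of the list length, in 24 of 38 pairs or 63.2%, the same as the 63.2% over all pairs. Among the 13 distal pairs it did so in 7, or 53.8%, beside 71.5% of all distal pairs.

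**Figure D3:**
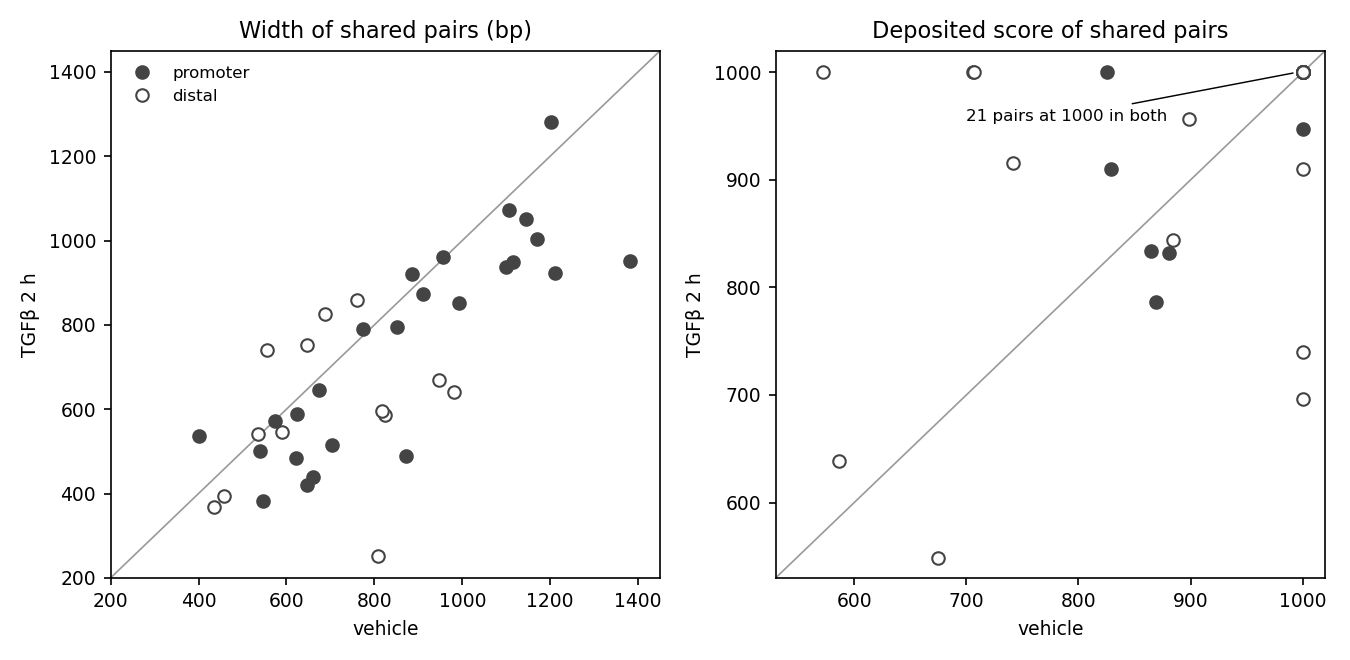
Width in bp (left) and deposited score (right) of the 38 shared pairs near the 10 genes, with vehicle on the horizontal and TGFβ 2 h on the vertical axis. Each point is 1 pair, filled for promoter and open for distal, and the gray line marks equal values. Most widths lie below the line, while scores lie on both sides of it and 21 pairs coincide at 1000.

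The promoters and intervals, those printed above among them, were searched with 9 short motifs on both strands. These were AP-1 (TGACTCA), the SMAD motif (CAGAC), the E2-box (CACCTG), Grainyhead (AACCNGTT), ETS (CCGGAA), TEAD (GGAATG), the GC box (GGGCGG), a CTCF core (AGGNGGCGC) and RUNX (TGTGGTT). ETS and TEAD matches can overlap at GGAA. In the 250 bases upstream of the start, the E2-box letters occurred at 4 of the 10 genes, Cdh1, Cldn4, Epcam and Esrp1, and at 17.0% of protein-coding genes. Cdh1 held 3 of them, at -69, -63 and -13 bp from its start. Epcam held 2, at -187 and -19 bp. The AP-1 letters occurred at Cldn4 alone among the members, at -240 and -158 bp, and at 3.85% of protein-coding genes. No member promoter held the Grainyhead letters, which 1.82% of protein-coding genes held. E2-box letters were thus present both at a start that was open in both lists and at 3 starts with no interval.

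In the central 200 bases of the 9 distal TGFβ 2 h-only intervals, the AP-1 letters occurred in 2, or 22.2% (6.32 to 54.7), beside 27.2% of all distal TGFβ 2 h-only intervals. Around the TGFβ 2 h midpoints, they occurred in 5 of 13 shared distal intervals, 38.5% (17.7 to 64.5), beside 23.5% of all such intervals. Around the vehicle midpoints of the same sites, only the Cdh1 intronic site at 16.5 kb held them. The share for shared sites thus depends on which list sets the midpoint. The E2-box letters occurred in 4 of the 9, or 44.4% (18.9 to 73.3), beside 16.9%. These were the sites near Cdh1, Cldn4, Ocln and Epcam, and over whole intervals the count was 5 of 9 beside 32.4%. They also occurred in both vehicle-only intervals near the genes, beside 20.2% of all vehicle-only intervals, and in 2 of 13 shared distal intervals, 15.4% beside 16.4%. Both vehicle-only intervals held the SMAD and ETS letters as well, beside 44.4% and 5.02% of all vehicle-only intervals. Among the 9 distal TGFβ 2 h-only intervals, the SMAD letters occurred in 5, beside 54.6%. For the E2-box in the central window of the 9, the lower bound of 18.9% lies just above 16.9%. That comparison is 1 of 9 motifs read in few intervals and was given no test. A match is a description of letters and not a bound site.

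**Figure D4:**
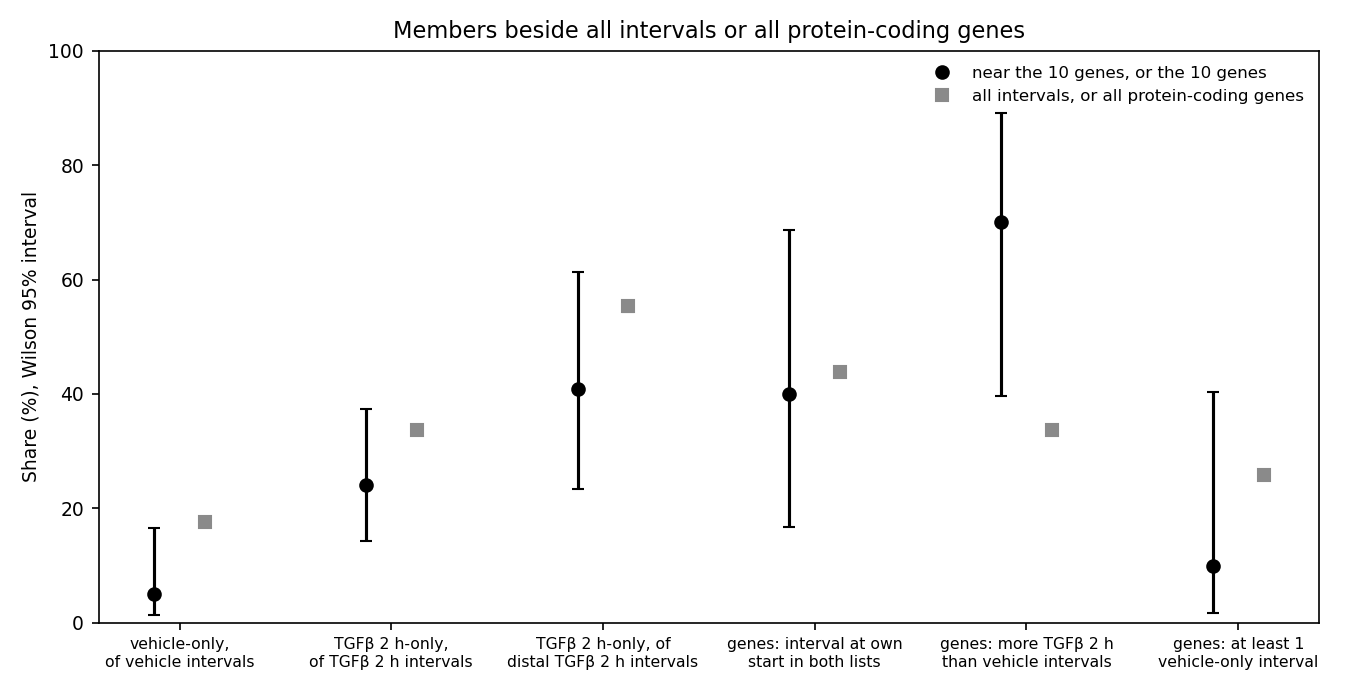
Shares in percent (vertical axis) near the 10 genes, as black circles, beside all intervals or all 22367 protein-coding genes, as gray squares. Bars are Wilson 95% intervals for counting error, too short to see on the gray squares. The vehicle-only share of intervals and the share of genes with more TGFβ 2 h intervals are those whose bars miss the gray square.

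A wider list of 60 genes with related roles was read in the same way, all of them found in the annotation. Of these, 56 had an interval in their window. Backgrounds below are given first over all protein-coding genes and then over those with an interval, while the shares are over all 60. An interval at the own start was called in both lists at 35 genes, or 58.3%, beside 43.8% and 56.6%. At 23 genes, or 38.3%, it was called in neither, beside 51.9% and 37.8%. More TGFβ 2 h than vehicle intervals were found at 29 genes, or 48.3%, beside 33.7% and 43.5%. Fewer were found at 10, or 16.7%, beside 13.2% and 17.1%. At least 1 TGFβ 2 h-only interval was found at 38 genes, or 63.3%, beside 40.5% and 52.4%. At least 1 vehicle-only interval was found at 23, or 38.3%, beside 25.9% and 33.5%. By role, more TGFβ 2 h intervals were counted at 10 of 18 tight junction genes, 6 of 10 adherens junction genes, 5 of 11 desmosome and gap junction genes, 3 of 11 polarity genes and 5 of 10 membrane and splicing genes. Fewer were counted at 2, 0, 1, 4 and 3 of them.

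Groups of this size differ by a few genes, and no contrast between them was tested. Among the 60, Cldn9, a claudin, and Pkp1, a desmosomal plakophilin, had the most TGFβ 2 h-only intervals, 5 each. Pard3, a polarity scaffold listed here with adherens junctions, had 4 of 8. Llgl2, a basolateral polarity gene, had the most vehicle-only intervals, 4 of 9, with 6 TGFβ 2 h intervals. Ap1m2, which sorts proteins to the basolateral membrane, had 3 vehicle-only intervals of 6 and none called TGFβ 2 h-only. Rab25, an epithelial trafficking GTPase, had 3 vehicle-only of 11 vehicle intervals and 1 TGFβ 2 h-only of 10. Neighbouring members of this list can share intervals.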

How the data were processed

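NMuMG cells given vehicle or TGFβ1 for 2 h were profiled by DNaseI-seq, with 1 peak list a condition. The series text speaks of duplicates. Per the paper's methods the authors aligned reads to mm9 and called peaks with macs2 and an irreproducible discovery rate, but options for DNaseI-seq are not given in the sources used here. The submitters' processing notes name MACS2 version 2.1.2 and mm9. The deposited values are intervals with a whole-number score, from 540 to 1000, made by the authors. Repeated rows of an interval were counted as 1 interval; what they stand for is not given. The lists hold no read depth; the paper's reporting summary gives more reads for vehicle, and nothing was scaled by depth.

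Intervals were joined to GENCODE M1 genes and motifs were read from the mm9 genome with Python 3.11.15, numpy 2.4.6 and scipy 1.17.1. The joins and motif counts were tested on simulated data. All members were named, with their own-start and unshared intervals, but for 1 near Epcam, and the shared distal interval with most rows. Other shared intervals, and Cldn1, Cldn12 and Cldn23, were chosen after their values were seen. Of the 60 related genes, those with most unshared intervals were named, with ties taken alphabetically. The members and lists were chosen with earlier results of these data known. Alternatives covered the unit, overlap, refinement, list length, score, window, assignment, start sites and motif window. Some intervals were counted but are not reported singly here.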

Additional observations from a re-analysis of the deposited data

How the results depend on the processing

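Of 82 values recomputed under 14 alternative settings, 54 stayed within 1.5 times for counts, within the reported Wilson interval for shares and within the quartiles over pairs for the width ratio. That interval is wide for the AP-1 share, 22.2% of 9, which was 40.0% with lists of equal length and 44.4% over whole intervals. Searched over whole intervals, 45.2% of all distal TGFβ 2 h-only intervals held the AP-1 letters. Other windows change the counts by their construction. Gene bodies alone gave 10 vehicle and 12 TGFβ 2 h intervals, with 1 vehicle-only and 3 TGFβ 2 h-only, 2 members with more TGFβ 2 h intervals and 0% of distal TGFβ 2 h-only intervals with AP-1. A window of 20 kb gave 20, 26, 1 and 7 intervals in the same order, and 0% with AP-1. A window of 100 kb gave 19 TGFβ 2 h-only intervals. Intervals whose nearest coding start was a member's numbered 12, 18, 1 and 7. With repeated rows left uncollapsed there were 158 vehicle and 156 TGFβ 2 h rows, of which 6 were vehicle-only and 31 TGFβ 2 h-only, so the order of the totals turned; the cause was not tested. Lists of equal length gave 4 vehicle-only and 7 TGFβ 2 h-only, with 5 members that had more TGFβ 2 h intervals. Intervals at or above the median score numbered 25 and 27, with 5 TGFβ 2 h-only, 3 members with more TGFβ 2 h intervals, 2 with an own-start interval in both lists and 66.7% with AP-1. TGFβ 2 h-only outnumbered vehicle-only in 14 of 14 settings, 4 of which leave these counts untouched by construction. With an own-start distance of 2000 bp, chosen after seeing the data, Crb3 joined and the count was 5. No paired analysis was possible because no test was made and each condition had 1 list. The lists hold no depth, and a missing interval sets no limit on signal.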
